A study of Mus musculus with 44 samples.

Results

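The 10 Notch pathway genes described here are the receptors Notch1, Notch2 and Notch3, the ligands Dll1, Dll3, Dll4, Jag1 and Jag2, and the target genes Hes1 and Hey1. They were taken by gene name from the expression tables of lineage-traced mouse embryos, where they are 10 of 32287 gene identifiers, and each was followed in all 44 libraries and 12 groups. Values are TPM, a level in transcripts scaled to the same total in every library and by transcript length, and can be set side by side between genes.

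Notch receptors are single-pass membrane proteins that are activated by ligands on a neighbouring cell. Binding of a Delta-like or Jagged ligand leads to cleavage by ADAM proteases and then by gamma-secretase, and the freed intracellular domain acts with RBPJ and Mastermind-like proteins on target genes of the Hes and Hey families, which encode transcriptional repressors. In the embryo, the pathway is known for the segmentation clock of the presomitic mesoderm at the tail bud, where Dll1, Dll3, Lfng and Hes7 act, and in the intestine for the choice between absorptive and secretory cells.

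Embryos were made by aggregating GFP+ embryonic stem cells (G4) with an mCherry+ morula (CD1/G4), so that embryonic cells carry GFP and extraembryonic cells carry mCherry. At E6.5, the groups are the GFP+ epiblast (Epi) and the mCherry+ extraembryonic endoderm, distal (exEndo1) or proximal (exEndo2), each dissected from single embryos (n = 4 each). At E9.5, EPCAM+ cells were sorted from the midgut and the hindgut of 4 pooled embryos per sample (n = 4 each). Per the study, the midgut was dissected out by hand, and for the hindgut the most posterior part of the embryo was kept. Region and dissection therefore change together. Cells of extraembryonic origin were mCherry+ (exMidgut, exHindgut). Those of embryonic origin were GFP+ with a low mCherry signal, labelled dual low (emMidgut, emHindgut). The study reads that signal as taken-up remnants of extraembryonic cells, whose transcripts can weaken differences between origins. Yolk sac endoderm (YsEndo), mCherry+, was taken alongside (n = 4). At E13.5, EPCAM+ cells of the small intestine and the colon of single embryos were either GFP+ and wild-type (emSI, emColon) or mCherry+ and Trp53 KO (exSI, exColon; n = 3 each). All groups at E6.5 and E9.5 are labelled WT. Embryonic cells derive from a stem cell line with GFP under a CAG promoter and extraembryonic cells from the morula, with mCherry under an EF1a promoter. Per the study, GFP+ cells are male and mCherry+ cells can be of either sex. Origin, source, reporter and in part sex therefore change together, and at E13.5 the Trp53 genotype changes with them. These cannot be told apart. The samples are bulk, so a lower level can be fewer cells with the transcript or less of it per cell, which cannot be told apart either. The p-values measure the spread between the samples of a group.

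Between 10382 and 13596 genes lay above 1 TPM in a library, and the highest correlation between 2 libraries was 0.996, with no pair identical. The epithelial and endodermal markers Epcam, Cdh1, Foxa1, Foxa2, Sox17, Cldn6, Krt8 and Krt18 summed to between 1626 and 6557 TPM in the endoderm groups and to 530 to 839 TPM in Epi. Sox17 was listed at 0 in every exSI, emColon and exColon library. Of 7 endothelial markers, which would bring Dll4 and Notch4 with them, the summed level was at most 5.64 TPM in any library, reached in emMidgut replicate 1.

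On mm10 (GENCODE vM21), the receptors lie at chr2:26457903-26516663 (Notch1, minus strand), chr3:98013527-98150361 (Notch2, plus) and chr17:32120820-32166852 (Notch3, minus). Dll1 is at chr17:15367354-15376872 (minus), Dll3 at chr7:28293553-28302238 (minus), Dll4 at chr2:119325784-119335962 (plus), Jag1 at chr2:137081456-137116644 (minus) and Jag2 at chr12:112907819-112929776 (minus). The target genes are at chr16:30064384-30067796 (Hes1, plus) and chr3:8663359-8667256 (Hey1, minus). Each value below is for the whole gene.

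Hes1 was the most abundant member, between 13 and 371 TPM and never below 1 TPM, and Notch2 was the only other member above 1 TPM in all 44 libraries (6.68 to 63.5 TPM). Notch1 and Notch3 passed 1 TPM in 30 and 36 libraries and Jag1 in 36. The rarest were Dll3, above 1 TPM in 11 libraries, and Dll4, above 1 TPM in 7 and listed at 0 in 26. The per-base read coverage behind these values had a median of 307 for Hes1 and 68.6 for Notch2, and of 0.299 for Dll3, whose median level was 0.103 TPM.

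**Figure D1:**
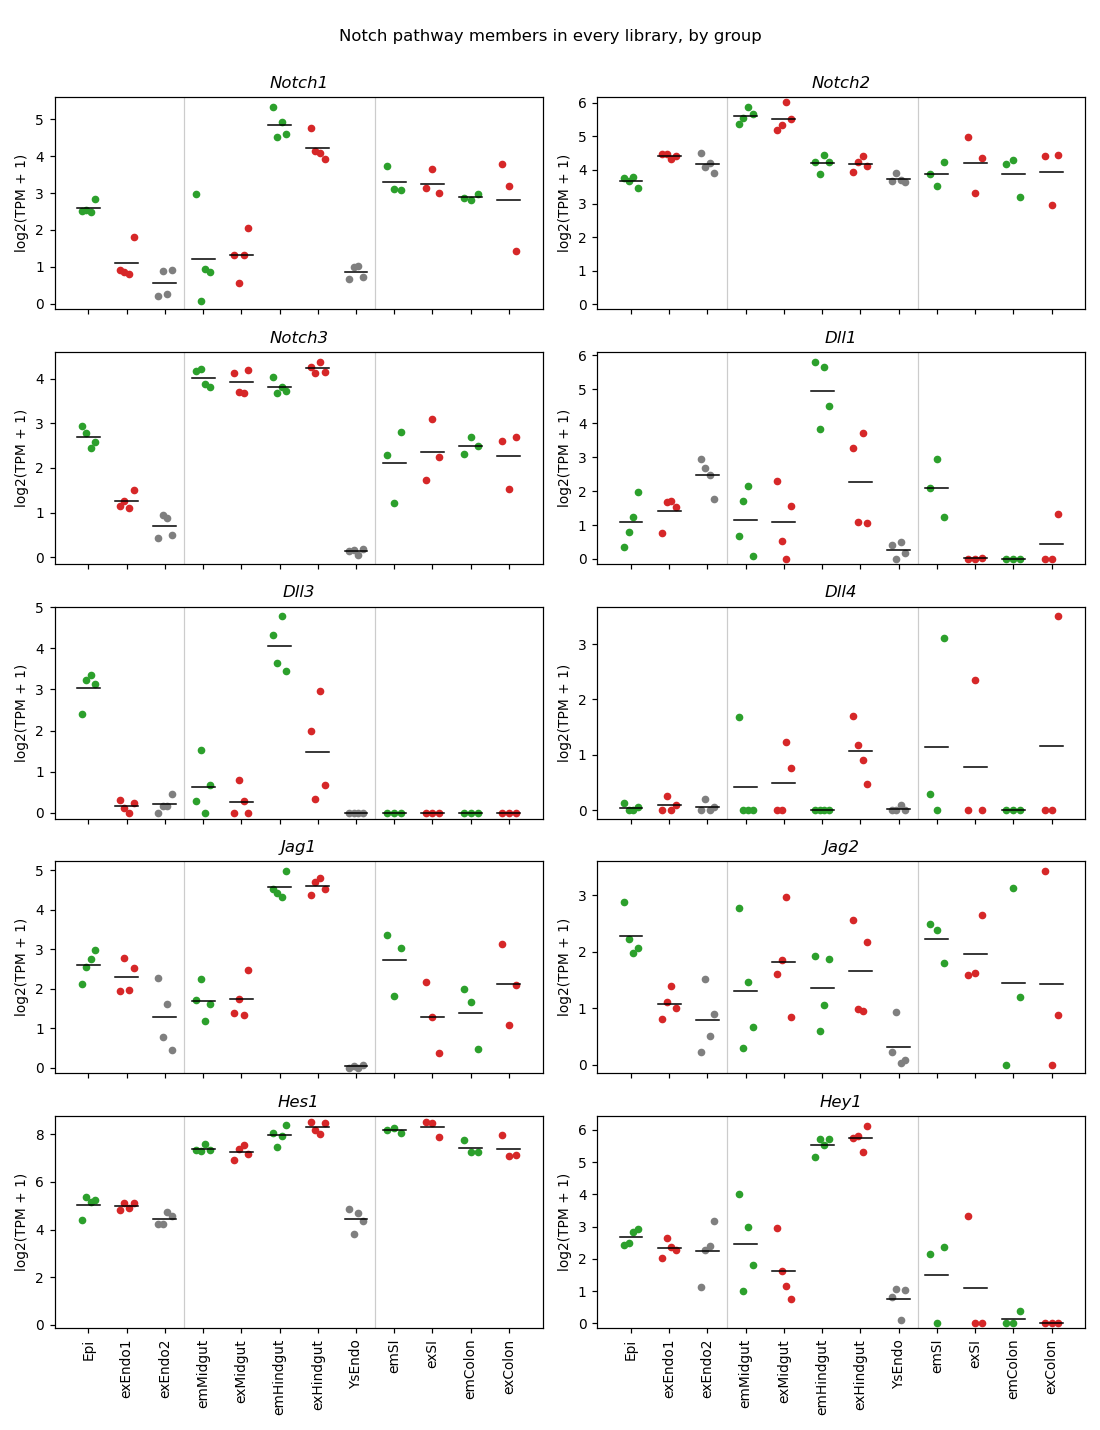
Level of each of the 10 members, as log2(TPM + 1), in the 44 libraries by group (green, embryonic; red, extraembryonic gut and exEndo1; grey, exEndo2 and YsEndo). Points are libraries, black lines are group means, and grey vertical lines part E6.5, E9.5 and E13.5. Notch1, Jag1 and Hey1 are high in both hindgut groups, Dll1 and Dll3 are highest in emHindgut, and Notch3, Jag1 and Hes1 are low in YsEndo.

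Both midgut and hindgut cells express Notch receptors at E9.5. Notch1, the ligand Jag1 and the target Hey1 were higher in the hindgut of both lineages, and Notch2 was lower. Differences between groups were tested with limma on log2(TPM + 1), two-sided, with Benjamini-Hochberg adjustment over all genes tested, and a call needed an adjusted p below 0.05 together with a log2 difference beyond 1 in either direction. In embryonic cells, 6 of 9 tested members were called between hindgut and midgut, 5 of them higher in the hindgut, against 13.9% of all 12490 genes tested. In extraembryonic cells, 5 of 8 tested members were called, 4 of them higher in the hindgut, against 11.3% of 12331 genes. The median log2 difference of the tested members was 2.88 and 1.12, and that of all genes was -0.02 and 0.00. The filter on low values needed 4 libraries above 1 TPM. Notch1, Dll1 and Dll3 exceeded 1 TPM in 1, 2 and 1 of the 4 emMidgut libraries. They passed it mainly through emHindgut, which largely set their direction and in part the embryonic count and median.

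Notch1, the receptor of the segmentation clock and of the early vasculature, was at 39.4, 21.9, 29.6 and 23.2 TPM in the 4 emHindgut libraries and at 6.81, 0.0628, 0.938 and 0.809 TPM in emMidgut. In exHindgut it was at 26.3, 16.5, 16.0 and 14.2 TPM, and in exMidgut at 1.5, 0.467, 1.52 and 3.17 TPM. Every hindgut library lay above every midgut library in both lineages. The log2 difference was 3.63 (SE 0.50, adjusted p = 8.78e-05) in embryonic cells and 2.91 (SE 0.41, adjusted p = 0.000217) in extraembryonic cells.

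Notch2, a broadly expressed receptor, went the other way. It was at 39.9, 46.0, 57.7 and 49.5 TPM in emMidgut and at 18, 13.7, 20.8 and 17.9 TPM in emHindgut. In exMidgut it was at 35.7, 39.4, 63.5 and 44.9 TPM, and in exHindgut at 14.3, 18, 20.5 and 16.4 TPM. The groups did not overlap, and hindgut cells were lower by a log2 difference of -1.41 (SE 0.20, adjusted p = 0.000115) in the embryonic and -1.33 (SE 0.24, adjusted p = 0.00151) in the extraembryonic lineage. Notch3, a receptor best known from vascular mural cells, was at 11.8 to 19.8 TPM in the 16 gut libraries and was not called in either lineage.

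Summed over the 3 receptors, the level was 65.8 ± 4.42 TPM (SD, n = 4) in emMidgut, 62.0 ± 11.6 in exMidgut, 59.2 ± 11.1 in emHindgut and 53.4 ± 5.16 in exHindgut, and in each lineage the ranges of hindgut and midgut overlapped. Notch2 made up 73.2% ± 7.79 (SD, n = 4) of this sum in emMidgut and 73.4% ± 7.36 in exMidgut, and 30.0% ± 4.07 and 32.7% ± 5.61 in emHindgut and exHindgut, with no overlap between the regions. The Notch1 share was 47.6% ± 4.59 in emHindgut and 33.9% ± 7.46 in exHindgut, with 43.4 to 54.2% and 28.4 to 44.8% in single libraries, and at most 10.7% in any midgut library. In exHindgut the 3 receptors had near equal mean shares, with Notch1 highest in replicate 1, Notch2 in replicates 2 and 3 and Notch3 in replicate 4. These shares are computed from the same levels as the tests above.

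**Figure D2:**
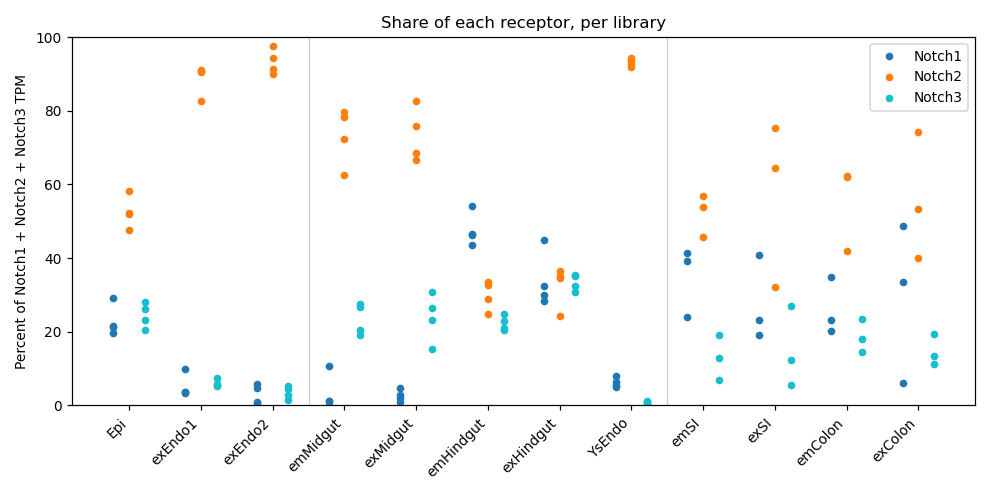
Percent of the summed Notch1, Notch2 and Notch3 TPM that each receptor makes up, with 1 point per library and grey lines parting E6.5, E9.5 and E13.5. Notch2 leads in exEndo1, exEndo2, YsEndo and both midgut groups, and the hindgut groups hold the highest Notch1 shares at E9.5, with 43.4 to 54.2% in emHindgut.

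The region 5′ of the transcription start is shown for Notch1 and Jag1, which were higher in the hindgut of both lineages, and for Notch2, which was lower. RefSeq's promoter table on GRCm38.p6 held 9 starts for 8 members; Hes1 and Hey1 were not matched. The Notch1 start in that table lies within the longer gene span of GENCODE vM21 (chr2:26457903-26516663), so its sequence is internal to that span. Each sequence is the stretch of the 250 bases before the RefSeq start that lies outside all GENCODE vM21 exons, written 5′ to 3′ on the gene's strand, with CpG dinucleotides in capitals.
Notch1, chr2:26503825-26504072, minus strand: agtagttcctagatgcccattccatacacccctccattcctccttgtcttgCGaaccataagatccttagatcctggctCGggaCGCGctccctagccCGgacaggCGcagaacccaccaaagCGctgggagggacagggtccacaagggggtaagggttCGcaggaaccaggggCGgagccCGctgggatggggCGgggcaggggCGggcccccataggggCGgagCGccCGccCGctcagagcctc
Notch2, chr3:98013288-98013526, plus strand: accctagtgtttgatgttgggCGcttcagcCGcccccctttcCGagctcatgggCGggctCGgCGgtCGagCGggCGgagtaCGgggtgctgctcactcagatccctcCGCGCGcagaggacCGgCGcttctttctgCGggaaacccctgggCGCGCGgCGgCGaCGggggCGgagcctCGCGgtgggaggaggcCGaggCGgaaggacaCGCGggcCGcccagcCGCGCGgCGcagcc
Jag1, chr2:137116645-137116770, minus strand: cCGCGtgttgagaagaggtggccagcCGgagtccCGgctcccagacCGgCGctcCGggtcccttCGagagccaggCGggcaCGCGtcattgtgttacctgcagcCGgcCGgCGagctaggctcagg
Over the full 250 bases, Notch1 held 16 CpG, Notch2 held 34 and Jag1 held 20, where the median of the 32851 promoters listed was 6. Searched on both strands, the RBPJ core TGGGAA was in none of the 9 member windows and in 21.6% of all promoters of the same length, and neither TTTATG (10.8%) nor AGGTGTGA (1.12%), letters bound by caudal and T-box factors, was in any of the 9. The E-box CANNTG, which reads the same on both strands, was in 4 of the 9 windows and in 66.2% of all promoters. Such matches describe letters only.

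Among the ligands, Jag1, which encodes a Jagged ligand, was at 22.1, 20.7, 19.2 and 30.6 TPM in emHindgut and at 2.26, 3.73, 1.28 and 2.06 TPM in emMidgut. In exHindgut it was at 19.9, 25.2, 27.2 and 22 TPM, and in exMidgut at 1.60, 2.34, 1.52 and 4.54 TPM. The regions did not overlap in either lineage, with log2 differences of 2.88 (SE 0.32, adjusted p = 1.21e-05) and 2.88 (SE 0.36, adjusted p = 8.17e-05).

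Dll1, a ligand needed for somite formation, was at 55.2, 13.2, 49.5 and 21.8 TPM in emHindgut and at 0.583, 2.30, 3.48 and 0.0601 TPM in emMidgut. The groups were apart, with a log2 difference of 3.79 (SE 0.51, adjusted p = 7.80e-05). In extraembryonic cells, Dll1 was at 8.58, 1.12, 12.1 and 1.08 TPM in the hindgut and at 3.96, 0.434, 0 and 1.94 TPM in the midgut, and these groups overlapped, with a log2 difference of 1.18 (SE 0.70, adjusted p = 0.280).

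Dll3, a divergent ligand that acts inside the presomitic cell, was at 19.0, 11.5, 26.5 and 10.0 TPM in emHindgut, and at 0.215, 1.88, 0 and 0.591 TPM in emMidgut. The log2 difference was 3.43 (SE 0.43, adjusted p = 3.86e-05), and Dll3 passed the filter on low values mainly through the emHindgut libraries. In exHindgut it was at 2.95, 0.258, 6.74 and 0.603 TPM and in exMidgut at most 0.722 TPM, and it did not pass the filter there. Jag2, a second Jagged ligand, ranged from 0.229 to 6.86 TPM over the 16 gut libraries and was not called. Dll4, an endothelial and intestinal ligand, was not tested between regions; it was listed at 0 in all 4 emHindgut libraries and at 0.389 to 2.25 TPM in exHindgut.

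The 2 target genes were both higher in the hindgut of extraembryonic cells. Hey1 was at 34.5, 51.7, 45.5 and 51.6 TPM in emHindgut and at 15.3, 1.00, 7 and 2.49 TPM in emMidgut. In exHindgut it was at 52.7, 55.1, 38.8 and 68.9 TPM and in exMidgut at 6.70, 2.06, 1.24 and 0.699 TPM. Neither pair of groups overlapped, and the log2 differences were 3.07 (SE 0.49, adjusted p = 0.000312) and 4.13 (SE 0.43, adjusted p = 1.75e-05).

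Hes1 was at 371, 289, 261 and 351 TPM in exHindgut and at 120, 164, 188 and 144 TPM in exMidgut, a log2 difference of 1.05 (SE 0.16, adjusted p = 0.000352) with no overlap. The difference fell under the size threshold, to between 0.94 and 0.995, without exHindgut replicate 1 or 4 or exMidgut replicate 1. In embryonic cells it was at 262, 178, 243 and 339 TPM in the hindgut and at 164, 157, 192 and 162 TPM in the midgut; these groups overlapped and the log2 difference of 0.56 (SE 0.16, adjusted p = 0.0179) did not reach the size needed for a call. Of the 11 member calls between the regions, the other 10 held in all 14 alternatives computed for each.

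**Figure D3:**
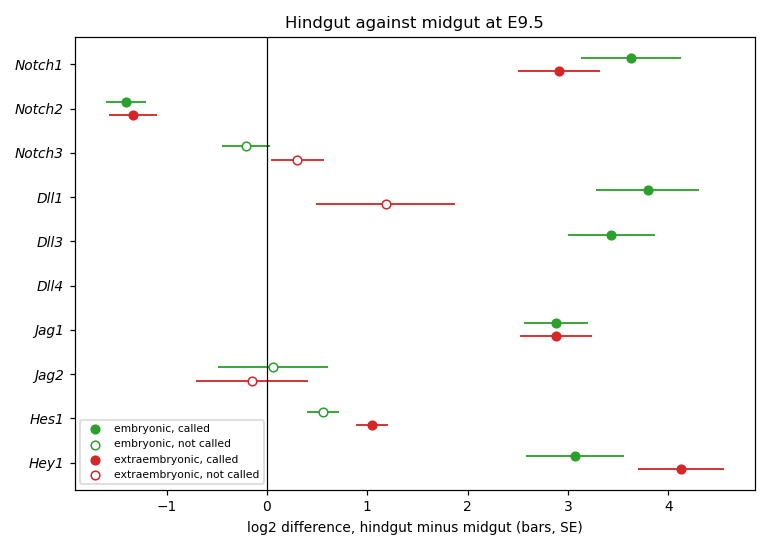
Difference in log2(TPM + 1) between hindgut and midgut at E9.5 for each member tested, in embryonic (green) and extraembryonic (red) cells; bars are the SE, filled points were called. Notch1, Jag1 and Hey1 lie between 2.88 and 4.13 in both lineages, Notch2 lies between -1.41 and -1.33, and Dll1 is at 3.79 in embryonic and 1.18 in extraembryonic cells.

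Of 46 other genes of the pathway, 38 were tested between the embryonic regions, where 5 were called higher and 1 lower in the hindgut, and 36 between the extraembryonic regions, with 5 higher and 2 lower. Their median log2 difference was 0.02 and 0.07, near that of all genes. Hes7, the repressor that drives the segmentation clock, averaged 47.3 ± 18.8 TPM (SD, n = 4) in emHindgut and 0.543 in emMidgut (log2 difference 5.10, adjusted p = 9.43e-07), and 21.7 ± 9.09 TPM in exHindgut and 0.183 in exMidgut (4.21, adjusted p = 1.73e-05). Nrarp, a feedback regulator of the pathway, averaged 16.5 ± 5.86 TPM in emHindgut and 0.352 in emMidgut (3.73, adjusted p = 1.17e-05), and 8.73 ± 4.07 TPM in exHindgut and 0.156 in exMidgut (2.98, adjusted p = 0.000472). Hey2 and the fringe glycosyltransferase Lfng were called higher in both lineages as well, Hes5 in emHindgut (13.9 against 0.752 TPM, adjusted p = 7.80e-05) and the ubiquitin ligase gene Dtx4 in exHindgut. The genes called lower in the hindgut were Aph1b, a gamma-secretase subunit, in embryonic cells, and Dlk1, an atypical ligand, and Olfm4, an intestinal stem cell marker, in extraembryonic cells (for Olfm4, 0.343 against 6.51 TPM, adjusted p = 0.00300). Hes7, Nrarp, Hes5 and Olfm4 averaged under 1 TPM in the region where they were lower. They passed the filter on low values mainly through the other region, which largely set their direction. Rbpj, the DNA-binding partner of all receptors, averaged 20.5 to 26.9 TPM in the 4 gut groups and was not called. It was chosen for mention after its values were seen.

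Tail bud genes moved with the region. Of 8 markers of presomitic mesoderm and tail bud, 5 of 5 tested were called higher in emHindgut than in emMidgut and 4 of 4 tested in exHindgut than in exMidgut. The tested ones were above 1 TPM in few or no midgut libraries and passed the filter on low values through the hindgut. That filter therefore largely set their direction. The summed level of the 8 was 903 to 1005 TPM in emHindgut, 585 to 986 TPM in exHindgut, 0.298 to 43.0 TPM in emMidgut and 0 to 6.53 TPM in exMidgut. No marker of the 8 was at 0 throughout emHindgut, Ripply2 was at 0 in all 4 exHindgut libraries, and Msgn1, Nkx1-2, Wnt3a and Ripply2 were at 0 in all midgut libraries. The endoderm markers summed to 1969 to 2479 TPM in emHindgut and 2541 to 3408 TPM in exHindgut, below the 5151 to 6282 and 5443 to 6557 TPM of the midgut groups, and 4 of 5 tested mesenchyme markers were called higher in emHindgut than in emMidgut. The midgut library with the highest sum, emMidgut replicate 1 at 43.0 TPM, was also the highest of its group for Notch1 and Hey1. The part of tail bud, mesenchymal or endodermal cells, or of the dissection, in the differences between regions was not tested.

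The study set extraembryonic gut cells against embryonic gut cells of the same stage and position to ask how far cells of the first kind take on the second kind's expression. Over both regions, none of the 10 members was called between exGut and emGut at E9.5 by limma, and none had an unadjusted p under 0.05, against 2.35% of 13473 genes called. Several of the comparisons below share libraries with each other and with those above. Of the 40 other pathway genes tested, 0 were called and 1 had an unadjusted p under 0.05. Both groups pool midgut and hindgut, between which the members differ as above, so the spread within each group is wide. With the region as a covariate, Dll3 was called lower in exGut (log2 difference -1.46, adjusted p = 0.0344), and with all 44 libraries in a single fit, Dll3 (adjusted p = 0.000111) and Dll1 (-1.37, adjusted p = 0.0189) were.

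Within the midgut, 0 of 8 tested members were called between exMidgut and emMidgut by limma and 0 had an unadjusted p under 0.05 (2.58% of 12432 genes called). Of 34 other pathway genes tested there, 0 were called and 3 had an unadjusted p under 0.05. Within the hindgut, 2 of 9 tested members were called, both lower in exHindgut, against 3.07% of 12318 genes.

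Those 2 were Dll1 and Dll3. Dll4, the other Delta-like ligand, was not tested and was listed at 0 in all 4 emHindgut libraries and at 0.389 to 2.25 TPM in exHindgut. Dll1 was between 1.08 and 12.1 TPM in the 4 exHindgut libraries and between 13.2 and 55.2 TPM in emHindgut, with a log2 difference of -2.67 (SE 0.60, adjusted p = 0.0187). Dll3 was between 0.258 and 6.74 TPM in exHindgut and between 10.0 and 26.5 TPM in emHindgut, with a log2 difference of -2.57 (SE 0.53, adjusted p = 0.0111). Dll3 was above 1 TPM in 2 of the 4 exHindgut libraries and passed the filter on low values mainly through emHindgut. The groups did not overlap for either gene. Neither call held when no filter on low values was used (adjusted p = 0.143 for Dll1 and 0.0954 for Dll3) or when the variance trend was left out (0.10 and 0.0576), and that of Dll1 was lost without emHindgut replicate 1 (0.0660) or replicate 3 (0.0588).

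The other 7 tested members were not called between the hindgut groups, and 1 of them, Notch1, had an unadjusted p under 0.05. Jag1 averaged 23.1 ± 5.12 TPM (SD, n = 4) in emHindgut and 23.6 ± 3.25 in exHindgut, Notch2 17.6 ± 2.93 and 17.3 ± 2.63, and Hey1 45.8 ± 8.11 and 53.9 ± 12.3. For Notch1, the log2 difference between exHindgut and emHindgut was -0.62 (SE 0.25, adjusted p = 0.191), for Notch3 0.42 (SE 0.23, adjusted p = 0.339) and for Hes1 0.34 (SE 0.17, adjusted p = 0.290). Notch3 was higher in every exHindgut library than in every emHindgut library without passing the test.

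**Figure D4:**
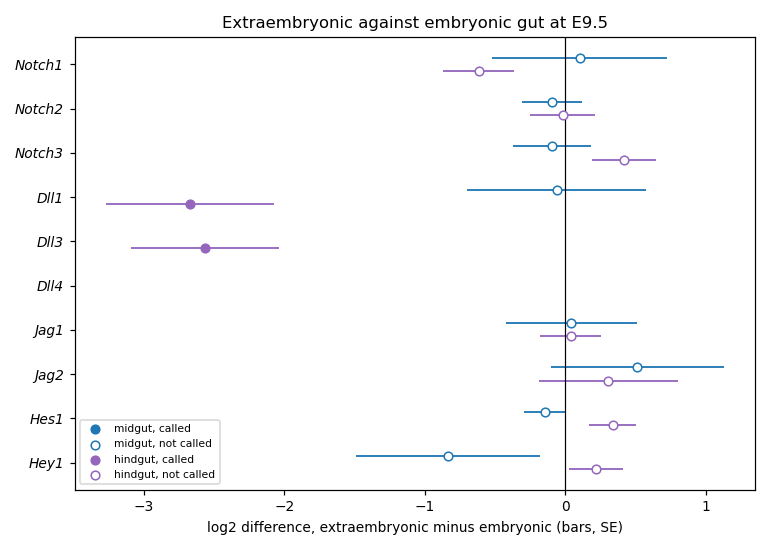
Difference in log2(TPM + 1) between extraembryonic and embryonic cells at E9.5 for each member tested, in the midgut (blue) and the hindgut (purple); bars are the SE, filled points were called. Dll1 at -2.67 and Dll3 at -2.57 in the hindgut are the called members, and the others lie between about -1 and 1.

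Whether the difference between origins itself differed between regions was tested by their interaction, for which a call needed only the adjusted p. None of the 10 members was called by limma (0.0965% of 13473 genes were), and 2 had an unadjusted p under 0.05. These were Dll1, with an interaction of -2.61 on the log2 scale (SE 0.94, adjusted p = 0.435), and Dll3 at -2.21 (SE 0.74, adjusted p = 0.392). A difference of the hindgut from the midgut in this respect was therefore not shown for either gene after adjustment.

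Some tail bud markers were also lower in exHindgut. Tbx6, a T-box factor of presomitic mesoderm, was at 58.9, 67.4, 53.7 and 31.4 TPM in emHindgut and at 15.6, 1.66, 21.2 and 9.62 TPM in exHindgut (log2 difference -2.36, adjusted p = 0.0134). Msgn1, another presomitic factor, was at 116, 296, 80.7 and 75.7 TPM in emHindgut and at 59.0, 0, 28.3 and 25.4 TPM in exHindgut (-3.05, adjusted p = 0.0713). In both genes the groups did not overlap.

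Other markers of the same list did not follow. T averaged 246 ± 55.9 TPM (SD, n = 4) in emHindgut and 196 ± 63.7 in exHindgut (-0.35, adjusted p = 0.372), and Fgf8 averaged 439 ± 88.4 and 430 ± 117 TPM. In all, 2 of 6 tested tail bud markers were called lower in exHindgut, Tbx6 and Wnt3a (49.4 ± 5.19 against 25.4 ± 8.95 TPM, adjusted p = 0.0315). Of 7 mesenchyme markers, 2 of 5 tested were called lower (Twist1, adjusted p = 0.0230, and Pdgfrb, adjusted p = 0.0276), and their summed level was 40.1 to 59.5 TPM in emHindgut and 22.7 to 28.2 TPM in exHindgut. Of 38 other pathway genes, 0 were called by limma and 4 had an unadjusted p under 0.05; Hes7, chosen for mention after its values were seen, averaged 21.7 TPM in exHindgut and 47.3 TPM in emHindgut (-1.11, adjusted p = 0.0589). The exHindgut libraries with the lowest Dll1 were replicates 2 and 4, and replicate 2 also had the lowest Tbx6 and Msgn1. The part of presomitic or mesenchymal cells in the difference of Dll1 and Dll3 was not tested.

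**Figure D5:**
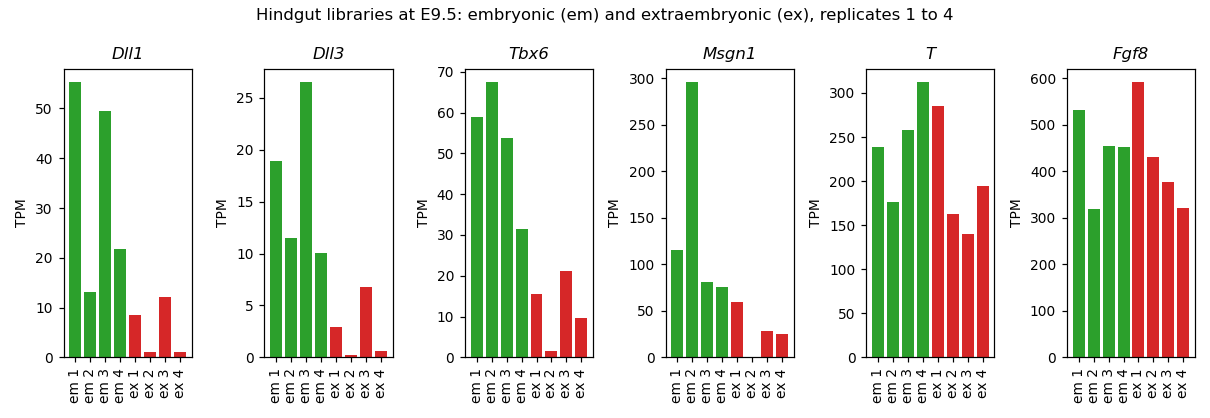
TPM of Dll1, Dll3 and 4 tail bud markers in each hindgut library at E9.5 (green, embryonic; red, extraembryonic; bars start at 0, with 1 bar per library). Dll1, Dll3, Tbx6 and Msgn1 are lower in all 4 exHindgut libraries than in any emHindgut library, and T and Fgf8 overlap between the groups.

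An overlap bears on the level of Dll1. In GENCODE vM21, 20.5% of its exonic bases are shared with A930024N18Rik on the opposite strand, and the library protocol does not mark strand, so reads from the 2 genes cannot be told apart there; A930024N18Rik was not analysed here. Antisense genes also overlap 7.5% and 2.91% of Notch1's exonic bases (0610009E02Rik and Gm13568, at most 3.86 TPM in any library), 6.03% of Notch3's and 5.56% of Dll4's. Gm42820 shares 5.02% of Notch2's exonic bases on the same strand.

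YsEndo, the yolk sac descendant of the extraembryonic lineage, had the lowest summed ligand level of the 12 groups: the 5 ligands came to 0.549 ± 0.293 TPM (SD, n = 4), against 35.7 ± 9.51 in exHindgut and 7.91 ± 1.59 in exMidgut. Between exGut and YsEndo, 7 of 8 tested members were called, all higher in exGut, against 42.4% of 12801 genes. Notch3, Dll1, Jag1 and Jag2 were above 1 TPM in no YsEndo library and passed the filter through exGut alone, so their direction, and in part the count and the median, was set by the filter. The median log2 difference was 2.42 for the members and 0.59 for all genes, so all values here stand on a general shift, which median-ratio rescaling brought to 0.07.

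Notch3 was at 0.0983, 0.127, 0.0392 and 0.131 TPM in YsEndo and at 11.8 to 19.8 TPM in the 8 exGut libraries (log2 difference 3.94, SE 0.22, adjusted p = 2.28e-09). Hes1 was at 28.4, 13, 25.0 and 19.2 TPM in YsEndo and at 120 to 371 TPM in exGut (3.35, SE 0.30, adjusted p = 3.72e-07). Jag1 was at most 0.0539 TPM in YsEndo, with 2 libraries listed at 0, and at least 1.52 TPM in exGut (3.14, SE 0.71, adjusted p = 0.00149). None of these groups overlapped, and each of the 3 calls held in all 18 alternatives.

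Notch2 was at 11.6, 14.2, 12 and 11.4 TPM in YsEndo, below every exGut library, with a log2 difference of 1.12 (SE 0.35, adjusted p = 0.0131) that was 0.56 (adjusted p = 0.189) under median-ratio rescaling, and that was under the size for a call with FPKM (0.99) and without exMidgut replicate 3 (0.96). Notch1 at 0.599 to 1.03 TPM (1.92, SE 0.73, adjusted p = 0.0329), Hey1 at 0.0735 to 1.10 TPM (2.93, SE 1.01, adjusted p = 0.0214) and Jag2 at 0.0271 to 0.913 TPM (1.42, SE 0.42, adjusted p = 0.00910) overlapped with exGut in at least 1 library. The Notch1 call was lost in 9 of 18 alternatives, among them without any 1 of the 4 YsEndo libraries or without exHindgut replicate 2, 3 or 4, with adjusted p up to 0.0726, the Hey1 call was lost without YsEndo replicate 3 (0.0579) and without a filter (0.0524), and that of Jag2 with FPKM (log2 difference 0.98). Dll1 was at most 0.407 TPM in YsEndo and was not called (1.42, SE 0.60, adjusted p = 0.0538). Dll3 was listed at 0 in all 4 YsEndo libraries. Of 36 other pathway genes tested, 19 were called higher in exGut, among them the intestinal factor Sox9 (24.7 against 0.0296 TPM, adjusted p = 2.52e-10), the coactivator Maml3 (13.2 against 0.375 TPM, adjusted p = 9.58e-08), Dtx3 (39.0 against 5.34 TPM, adjusted p = 2.41e-08) and Poglut1 (73.5 against 12.1 TPM, adjusted p = 1.28e-06), which adds O-glucose to the receptors. The 1 gene called lower was the gamma-secretase subunit Psen2, named after its values were seen. The median log2 difference of these 36 was 1.26. Sox9 and Maml3 averaged under 1 TPM in YsEndo, so they passed the filter mainly through exGut.

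At E6.5, Epi and exEndo1, the progenitors of the embryonic and extraembryonic gut, differed in their receptor levels. Of 9 tested members, 4 were called lower in exEndo1 than in Epi and 0 higher, against 33.4% of 12057 genes called. Dll3, among the 4, was above 1 TPM in no exEndo1 library and passed the filter through Epi alone, which set its direction. Notch1 and Jag2 were above 1 TPM in 1 and 2 of the 4 exEndo1 libraries and passed it mainly through Epi. The filter therefore set the count in part. Notch1 was at 4.72, 4.83, 4.65 and 6.17 TPM in Epi and at 0.873, 0.822, 0.758 and 2.48 TPM in exEndo1 (log2 difference -1.50, SE 0.23, adjusted p = 0.000158). Notch3 was at 6.70, 5.86, 4.44 and 4.95 TPM in Epi and at 1.21, 1.39, 1.15 and 1.85 TPM in exEndo1 (-1.43, SE 0.17, adjusted p = 2.85e-05). Both were apart in every library.

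Notch2 was higher in every exEndo1 library, at 21.3, 21.5, 18.9 and 20.5 TPM against 12.4, 11.7, 12.7 and 10.1 TPM in Epi, and its log2 difference of 0.76 (SE 0.14, adjusted p = 0.000581) was under the size for a call. Its share of the summed receptor level was 52.6% ± 4.39 (SD, n = 4) in Epi and 88.8% ± 4.16 in exEndo1. Of the ligands, Dll3 was at 4.28, 8.34, 9.14 and 7.80 TPM in Epi and at most 0.245 TPM in exEndo1 (-2.86, SE 0.21, adjusted p = 6.12e-07), and Jag2 was at 2.93 to 6.32 TPM in Epi and at 0.746 to 1.62 TPM in exEndo1 (-1.21, SE 0.22, adjusted p = 0.000595). With FPKM the Jag2 difference was -0.99, under the size for a call, and without any 1 Epi library Dll3 no longer passed the filter and was not tested. Hes1 averaged 32.8 ± 8.73 TPM (SD, n = 4) in Epi and 31.2 ± 3.33 in exEndo1 and was not called.

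Of 30 other pathway genes tested, 8 were called higher in exEndo1 and 3 lower, with a median log2 difference of 0.20, where that of all genes was 0.09. Dtx1, a ubiquitin ligase gene, averaged 0.198 TPM in exEndo1 and 12.5 TPM in Epi (-3.41, adjusted p = 1.46e-06), and the fringe gene Mfng 0.535 and 4.87 TPM (-1.88, adjusted p = 0.000317). The sheddase Adam10 averaged 49.3 TPM in exEndo1 and 8.09 TPM in Epi (2.48, adjusted p = 4.00e-07), and the atypical ligand Dlk1 6.42 and 0.126 TPM (2.49, adjusted p = 0.000162). Dtx1 and Mfng averaged under 1 TPM in exEndo1 and Dlk1 in Epi, and each passed the filter mainly through the other group.

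Between distal and proximal extraembryonic endoderm, 1 of 6 tested members was called, against 6.41% of 11414 genes, and 4 had an unadjusted p under 0.05. Dll1 was at 6.70, 5.48, 4.51 and 2.40 TPM in exEndo2 and at 0.712, 2.17, 2.26 and 1.90 TPM in exEndo1, without overlap (log2 difference -1.05, SE 0.30, adjusted p = 0.0379). The call was lost without exEndo1 replicate 1, 2 or 4 or exEndo2 replicate 1, 2 or 3 (adjusted p from 0.0641 to 0.0886) and without a filter (0.113), and with FPKM the difference was -0.87 (adjusted p = 0.0280). Hes1 was higher in every exEndo1 library than in every exEndo2 library, at 27.6 to 34.0 against 17.6 to 25.5 TPM, with a log2 difference of 0.56 (SE 0.15, adjusted p = 0.0342) under the size for a call. Jag1 was at 2.85, 5.88, 2.93 and 4.70 TPM in exEndo1 and at 3.82, 0.710, 2.08 and 0.359 TPM in exEndo2, with a log2 difference of 1.03 (SE 0.38, adjusted p = 0.0993), and was called higher in exEndo1 without exEndo2 replicate 1 (1.36, adjusted p = 0.0246). Notch3 was at 1.15 to 1.85 TPM in exEndo1 and 0.356 to 0.932 TPM in exEndo2 (0.56, SE 0.22, adjusted p = 0.125), and passed the filter through exEndo1 alone. Markers of other cell types differed between the same groups: mesenchyme markers summed to 7.26 to 15.7 TPM in exEndo1 and 45.5 to 88.5 TPM in exEndo2, tail bud markers to 15.4 to 105 and 1.76 to 5.75 TPM, and extraembryonic ectoderm markers to 35.7 to 89.8 and 7.47 to 29.0 TPM. Of those tested, 1 of 2 mesenchyme markers was called lower in exEndo1, and 1 of 2 tail bud and 1 of 1 extraembryonic ectoderm markers higher. Only 2 of the 7 mesenchyme markers averaged above 1 TPM in each group. The tail bud list held 8 markers, of which 2 did so in exEndo1 and 1 in exEndo2. Both sums therefore rested on few genes of their lists and alone do not mark such cells. Of the 4 extraembryonic ectoderm markers, 1 averaged above 1 TPM in exEndo1 and 3 in exEndo2, so the exEndo1 sum rested mainly on 1 gene. Epi also had 1 such marker and summed to 16.2 to 124 TPM, so the sum alone does not mark that tissue. The part of these cell types in the members' differences was not tested. Of 28 other pathway genes, Nrarp (3.09 ± 0.678 against 0.148 ± 0.0618 TPM, SD, n = 4, adjusted p = 0.000259) and Maml3 (4.71 against 1.05 TPM, adjusted p = 0.0117) were called higher in exEndo1.

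From the E6.5 groups to the gut at E9.5, Hes1 and Notch3 were called higher in both lineages. The E6.5 groups were dissected from single embryos, and the E9.5 gut groups were EPCAM+ cells sorted from 4 pooled embryos. Stage, dissection, sort and pooling therefore change together here and cannot be told apart. Between Epi and emGut, 3 of 9 tested members were called, all higher in emGut, against 29.7% of 13053 genes, and between exEndo1 and exGut 2 of 8, both higher, against 30.3% of 12931 genes. Hes1 was at 20.2 to 40.1 TPM in the Epi libraries and at 157 to 339 TPM in emGut (log2 difference 2.65, SE 0.22, adjusted p = 3.26e-07), and at 27.6 to 34.0 TPM in exEndo1 and 120 to 371 TPM in exGut (2.78, SE 0.27, adjusted p = 1.62e-06). Notch3 was 1.23 higher on the log2 scale in emGut than in Epi (SE 0.19, adjusted p = 0.000103) and 2.82 higher in exGut than in exEndo1 (SE 0.22, adjusted p = 2.03e-07).

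Notch2 was 1.24 higher in emGut than in Epi on the log2 scale (SE 0.36, adjusted p = 0.00984). Under median-ratio rescaling, which brings the median of all genes between emGut and Epi from 0.30 to 0.01, the differences of Notch2 (0.93) and Notch3 (0.94) were under the size for a call; between exGut and exEndo1 the median was 0.13 and the Notch3 and Hes1 calls held in all 17 alternatives. Since emGut and exGut hold both regions, the members that differ between regions had wide errors here: the log2 difference of Dll1 between emGut and Epi was 1.96 (SE 0.98, adjusted p = 0.108) and that of Hey1 1.32 (SE 0.81, adjusted p = 0.186). Of the other pathway genes, 11 of 38 were called higher and 2 lower in emGut than in Epi, and 10 of 36 higher and 1 lower in exGut than in exEndo1. The largest differences in both lineages included Sox9, which averaged 0.587 TPM in Epi and 28.5 TPM in emGut (4.20, adjusted p = 8.96e-09) and 0.945 TPM in exEndo1 and 24.7 TPM in exGut (3.72, adjusted p = 8.51e-09). Ncstn, a gamma-secretase subunit, averaged 20.2 TPM in Epi and 105 TPM in emGut, and 38.3 TPM in exEndo1 and 110 TPM in exGut.

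At E13.5, the levels within a group spread widely, and none of 9 tested members was called between extraembryonic and embryonic cells by limma with the organ as a covariate, with 0 at an unadjusted p under 0.05 and 0.625% of 12483 genes called. Hes1 was at 294, 311 and 269 TPM in emSI, at 367, 358 and 240 TPM in exSI, at 215, 154 and 153 TPM in emColon and at 251, 135 and 141 TPM in exColon. Notch2 was at 8.19 to 18.7 TPM in the 6 embryonic libraries and at 6.68 to 30.7 TPM in the 6 extraembryonic ones, and Notch1 at 6.08 to 12.4 and 1.72 to 12.7 TPM. The ranges of the lineages overlapped for each of these genes.

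Of the ligands, Jag1 was at 2.50 to 9.25 TPM in emSI, 0.297 to 3.47 TPM in exSI, 0.378 to 3 TPM in emColon and 1.11 to 7.84 TPM in exColon. Jag2 was at 2.47 to 4.62 TPM in emSI and 2.01 to 5.25 TPM in exSI, and at 0 to 7.76 TPM in emColon and 0 to 9.75 TPM in exColon. The Delta-like ligands were detected in fewer libraries. Dll3 was listed at 0 in all 12 libraries. Dll1 was at 3.24, 6.76 and 1.34 TPM in emSI and listed at 0 in 2 of 3 exSI, 3 of 3 emColon and 2 of 3 exColon libraries (extraembryonic minus embryonic, log2 difference -0.82, SE 0.55, adjusted p = 0.626). Dll4 reached 7.65 TPM in emSI replicate 3, 4.1 TPM in exSI replicate 2 and 10.3 TPM in exColon replicate 3 and was at most 0.232 TPM in the other 9. Neural markers, whose cells can carry Dll1, summed to 8.74 to 15.3 TPM in emSI and to at most 1.74 TPM in exSI. Of these 7 markers, 2 averaged above 1 TPM in emSI, and Sox1, Tubb3, Neurog1 and Neurog2 were at 0 in every emSI library. In emColon, 1 library reached 9.88 TPM with Dll1 listed at 0. Mesenchyme markers summed to 354, 88.5 and 1.93 TPM in emSI and to at most 1.25 TPM in exSI, with 0 of 3 tested called between the lineages; the part of either in the level of Dll1 was not tested. Of 32 other pathway genes, 0 were called between the lineages by limma and 1 had an unadjusted p under 0.05.

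Between colon and small intestine, with the lineage as a covariate, none of 9 tested members was called by limma and 1 had an unadjusted p under 0.05 (1.3% of 12483 genes called). That member was Hes1, lower in the colon by a log2 difference of -0.83 (SE 0.19, adjusted p = 0.0308), under the size for a call. Of the 32 other pathway genes tested, Dlk1 was called lower in the colon (10.1 against 39.9 TPM, adjusted p = 0.0334). The secretory lineage factors Atoh1 and Neurog3, which the pathway is known to restrain, passed the filter in no comparison. Neurog3 was listed at 0 in 1 emSI library and reached 11.5 and 71.1 TPM in the other 2, and was at 0 in every exSI, emColon and exColon library.

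From E9.5 to E13.5, 4 of 9 tested members were called between embryonic gut cells of the 2 stages, all lower at E13.5, against 18.5% of 13017 genes, and 2 of 9 between the extraembryonic ones, both lower, against 13% of 12945 genes. The tail bud markers summed to 903 to 1005 TPM in emHindgut and 585 to 986 TPM in exHindgut, and to at most 13.4 TPM in any E13.5 library. Of those tested, 3 of 5 were called lower in embryonic and 2 of 4 in extraembryonic cells. They passed the filter mainly through the E9.5 hindgut, which largely set that direction. The part of tail bud cells in the members' differences was not tested. The stages differ in the organs sampled, in embryos per sample (4 pooled at E9.5, single at E13.5) and, in extraembryonic cells, in Trp53 genotype. In embryonic cells the sort differs too, with GFP+ cells of low mCherry at E9.5 and GFP+ cells at E13.5. The median of all genes was itself lower at E13.5, by -0.46 in the embryonic and -0.28 in the extraembryonic lineage on the log2 scale, and by -0.20 and -0.12 after median-ratio rescaling. Notch3 was at 11.8 to 17.5 TPM in emGut and at 1.34 to 5.99 TPM in the embryonic E13.5 libraries (log2 difference -1.62, SE 0.30, adjusted p = 0.00108), and at 11.8 to 19.8 and 1.88 to 7.55 TPM in the extraembryonic lineage (-1.77, SE 0.32, adjusted p = 0.00128). The stages did not overlap in either lineage.

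Hey1 averaged 26.1 TPM in emGut and 1.31 TPM in the embryonic E13.5 libraries (-3.18, SE 0.77, adjusted p = 0.00639), and 28.3 and 1.51 TPM in the extraembryonic lineage (-3.13, SE 0.91, adjusted p = 0.0248). The second call was lost without exSI replicate 2 (adjusted p = 0.0507) and without a filter (0.0624). At E13.5, Hey1 was above 1 TPM in 2 of 3 emSI libraries, 1 of 3 exSI libraries and 0 colon libraries. It passed the filter mainly through the E9.5 libraries, which largely set its direction. Dll3, among the 4 embryonic calls (adjusted p = 0.0226), was listed at 0 in all 6 embryonic E13.5 libraries and passed the filter through emGut alone, so it could only be lower. Notch2, lower by -1.02 in embryonic cells (SE 0.35, adjusted p = 0.0358), lost its call in 10 of 19 alternatives, among them median-ratio rescaling (-0.73, adjusted p = 0.140), FPKM (-0.80, adjusted p = 0.0869), no filter (0.0553) and the fits without any 1 emMidgut library, emSI replicate 1 or 2 or emColon replicate 3 (adjusted p up to 0.0725). Hes1 was not called in either lineage. Of the other pathway genes, 11 of 38 were called lower and 0 higher in embryonic cells, and 7 of 39 lower and 1 higher in extraembryonic cells, with median log2 differences of -0.69 and -0.52. The largest called differences were those of Hes7 (0.0262 against 23.9 TPM, adjusted p = 0.0369) and Nrarp (0.0147 against 8.42 TPM, adjusted p = 0.0391) in embryonic cells and of Dtx3 (13.9 against 39.0 TPM, adjusted p = 0.00317) and Hey2 (0.259 against 4.35 TPM, adjusted p = 0.0349) in extraembryonic cells. In these comparisons Hes7, Nrarp and Hey2 averaged under 1 TPM at E13.5. They passed the filter mainly through the E9.5 libraries, which largely set their direction. The gene called higher in extraembryonic cells was Sox9, at 24.7 TPM in exGut and 66.6 TPM at E13.5 (adjusted p = 0.00177).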

How the data were processed

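RNA was measured in 44 low-input poly(A) libraries made by a Smart-seq2-type protocol. Per the study's methods and the submitters' processing notes, reads were trimmed with cutadapt 4.1, aligned with STAR 2.7.9a to mm10 extended by the transgenes, and quantified with StringTie 2.0.6 on GENCODE VM23. The deposited values are TPM, FPKM and coverage (the mean per-base read signal) per gene, each made by the authors; TPM was summed per gene identifier. Read counts were not used here, so counting error is unknown, and precision is known only from the spread between libraries.

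Protein-coding, non-Y genes above 1 TPM in at least 4 libraries (3 within E13.5) were tested on log2(TPM + 1), pseudocount 1, using the linear models of limma 3.58.1 (empirical Bayes with a variance trend; R 4.3.3), two-sided, over the libraries of the groups compared. Fold changes on this scale understate those of low genes. A gene above 1 TPM in only 1 of the groups compared passed the filter through that group, which largely set its direction. The code was tested on simulated data. Gene types came from GENCODE vM21 (21704 protein-coding of 32287 identifiers; 50 did not match). Alternatives tried were a smaller pseudocount (0.1), no filter, median-ratio rescaling, FPKM, eBayes without trend, leaving out each library, a replicate block (statmod 1.5.0), region, organ or lineage covariates and a single fit. Member fold changes are printed only at an unadjusted p under 0.2, not for every such member, and for other pathway genes where called or where stated. Python 3.11.15 with NumPy 2.4.6 and pandas 2.3.3 gave the levels. All 10 members are named; of the other 46 pathway genes, up to 4 called ones with the largest differences per comparison are given with values, and others are named where stated. Genes of like pattern are the 3 nearest per member. The members and lists were chosen with earlier results of these data known. Replicate numbers paired exEndo1 with exEndo2 (correlations of same-numbered libraries 0.132 to 0.361). Elsewhere these correlations ran from -0.145 to 0.159, though in some E13.5 pairs of groups every library correlated best with its own number. Whether the numbers mark pairs there is not settled, and outside the replicate block all libraries were fitted as unpaired.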

Additional observations from a re-analysis of the deposited data

Results flagged for a closer look

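Of 78 groups of 4 libraries tested for a single library apart from the rest by Dixon's criterion, 6 were past it. Chance alone gives about 1 in 20 for normally distributed values. The values tested were TPM, some of them 0, so that rate need not hold here. Notch1 was at 6.17 TPM in Epi replicate 4, against 4.65 to 4.83 in the other libraries of the group, at 2.48 TPM in exEndo1 replicate 4 (0.758 to 0.873), and at 6.81 TPM in emMidgut replicate 1 (0.0628 to 0.938). Dll4 was at 2.23 TPM in emMidgut replicate 1 and at 0.0727 TPM in YsEndo replicate 3, and listed at 0 in the other libraries of both groups. With the others at 0, any level above 0 is past the criterion. Jag2 was at 0.913 TPM in YsEndo replicate 2 (0.0271 to 0.173 in the others). EmMidgut replicate 1 also had the highest summed tail bud markers of its group, and without it all 6 embryonic hindgut calls held. The 7 endothelial markers summed to 5.64 TPM in that library, and to 3.43 TPM in emMidgut replicate 3, where Dll4 was listed at 0. Among these markers, Cdh5, Kdr, Tie1, Emcn and Erg were at 0 in every emMidgut library. The part of endothelial cells in the level of Dll4 was not tested.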

How the results depend on the processing

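Of 36 member calls, 23 held under every alternative run for them and 13 were lost under at least 1; no called difference changed sign. Among 1020 alternative values of differences with an unadjusted p of 0.2 or more, 107 changed sign and 0 of these were called; that limit on which differences are printed was set after the alternatives were seen. The number of members called for exGut against emGut (0) was 1 with the region as a covariate and 2 in the single fit of all libraries. It was 0 for exHindgut against emHindgut without a filter and without the trend, 0 for exEndo1 against exEndo2 without a filter and with FPKM, and 1 for extraembryonic E13.5 cells against exGut without a filter. Genes called for exGut against emGut (316) numbered 490 with a replicate block, 587 with the region and 591 in the single fit. Without a filter they numbered 173 for exMidgut against emMidgut (321), 223 for exHindgut against emHindgut (378), 8 for the interaction (13) and 81 for colon against small intestine (162); the interaction had 0 with a pseudocount of 0.1 and 8 without the trend. The cause of these changes was not tested. Leaving out 1 library at a time gave 0 to 1 members for exEndo1 against exEndo2, 1 to 2 members and 237 to 311 genes for exHindgut against emHindgut, 209 to 359 genes for exMidgut against emMidgut, 1 to 3 members for extraembryonic E13.5 cells against exGut and 3 to 19 genes for the interaction. The replicate block changed no member call, and where the numbers pair exEndo1 with exEndo2 the adjusted p of Dll1 was 0.0231 with it. For the other pairs of groups, the correlations of same-numbered libraries ran from -0.145 to 0.159, and every library correlated best with its own number in exColon with emColon, exSI with emSI and exColon with exSI. Depth per gene is known here only as coverage, which limits Dll3 and Dll4 most.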

Other observations

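For each member, the 3 genes whose group means of log2(TPM + 1) followed it most closely by Pearson correlation over the 12 groups are given as a description, since all points come from the same libraries. Those of Notch3 were Vezf1 (r = 0.976), Ddit4 (0.969) and Kdm7a (0.969), and those of Hes1 were Gbp7 (0.975), Tcim (0.974) and Plk2 (0.969). Hey1 was nearest to Apcdd1 (0.959), Sp8 (0.953) and Mcc (0.950), and Dll3 to Tcf15 (0.959), a factor of paraxial mesoderm, Pcolce2 (0.941) and Tctex1d1 (0.938). Notch2 was nearest to Lce6a (0.948), Slc4a9 (0.942) and Ero1lb (0.926), and Jag2 to Lysmd2 (0.940), Pck2 (0.933) and Rps3 (0.902). The values were lower for Jag1 with Ifitm5 (0.917), Pcdh18 (0.916) and Mfsd2a (0.914), for Notch1 with Jpt2 (0.906), Bbs12 (0.903) and Rpl7l1 (0.895), for Dll1 with Zeb1 (0.896), Crabp1 (0.880) and Wnt6 (0.880), and for Dll4 with Cldn10 (0.865), Sirt4 (0.861) and Nnt (0.853).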
